A study of Homo sapiens with 6 samples.

Results

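The protocadherin genes were described in U2OS cells, an established human osteosarcoma line, given siRNA against ALKBH5 or a scrambled siRNA. The members are all genes of the deposited count table whose symbol begins with PCDH, 70 of 23228. They comprise 15 genes of the alpha cluster (PCDHA), 19 of the beta cluster (PCDHB), 23 of the gamma cluster (PCDHG) and 13 non-clustered genes. The family was picked because PCDHB genes were lower and PCDH1 was higher in this same comparison. Its fold changes and calls are therefore a description of the libraries, and no p-value is given for a member.

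Polyadenylated RNA was sequenced from 3 libraries of cells that had received ALKBH5 siRNAs and 3 libraries of cells that had received scrambled siRNA, each harvested 48 hours after lipid transfection. ALKBH5 is an enzyme that takes the methyl group off N6-methyladenosine in RNA. All libraries came from the same line, and no rescue or separate second siRNA is analysed here, so loss of ALKBH5 and other effects of the siRNAs cannot be told apart. Separate cultures are not stated for the replicates, and the p-values below describe only the spread between these libraries. In bulk RNA, fewer cells carrying a transcript and less of it per cell cannot be told apart.

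Protocadherins are cell surface proteins of the cadherin superfamily. The clustered genes stand in tandem, each with its own promoter, and a neuron uses only a few of them, chosen with the help of the DNA-looping factor CTCF and of cohesin; their proteins bind like copies on neighbouring membranes and let a neuron tell its own branches from those of other cells. An alpha or gamma variable exon is spliced to constant exons that its whole cluster shares, while beta genes have no constant exon. Non-clustered protocadherins are separate genes with roles in adhesion, cell sorting and migration.

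The clustered genes carry a short conserved promoter element with the letters CGCT at its heart, which is bound by CTCF. It is shown because the beta genes that were lower and those that were not called share it. Promoters of 250 bases before to 50 bases after the start, from RefSeq on GRCh38.p14, were found for 13 PCDHA, 14 PCDHB, 20 PCDHG and 11 non-clustered genes. The windows below are 30 bases on the plus strand of chromosome 5, and the capitals mark the match to a motif chosen for the cluster. They lie at chr5:141135173-141135202 for PCDHB5, chr5:141094538-141094567 for PCDHB2, chr5:141182304-141182333 for PCDHB16 and chr5:141192293-141192322 for PCDHB10, all called lower. PCDHB14 at chr5:141223257-141223286 was not called.
PCDHB5: agtaaattaggacgcctGGTGGCGCTgcag
PCDHB2: actcggaagagacgcggGGTGGCGCTgcag
PCDHB16: actcagtgagaacgcgtGGTGGCGCTgcag
PCDHB10: tctggtggaggccacacGGTGGCGCTgcag
PCDHB14: aaaacatggagacacatGGTGGCGCTacag

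The beta motif GGTGGCGCT, searched on both strands after the promoters had been looked at, was in 13 of 14 PCDHB promoters and in 0.619% of the 27305 promoters of all genes. PCDHB1, which held 2 reads in all libraries together, was the beta gene without it. The motif was in the promoters of all 8 called-lower PCDHB genes that had a promoter entry, and equally in all 5 such genes that were not called. The 10-base form GGTGGCGCTG adds to the motif the base that most often followed it in these same PCDHB promoters. This form was in 12 of the 14 and was missing from PCDHB1 and PCDHB14. PCDHB3, PCDHB4, PCDHB13 and PCDHB15, which were not called, held it as the called-lower genes did. It was in 0.341% of all promoters. The beta motif began between 84 and 2 bases before the RefSeq start, with a median of 66.

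The alpha and gamma clusters have their own forms of the element. The windows shown for them are chr5:140821536-140821565 for PCDHA5 and chr5:140868877-140868906 for PCDHA11, both called lower, then chr5:141350019-141350048 for PCDHGB1, called lower, and chr5:141475874-141475903 for PCDHGC3, not called.
PCDHA5: taccctttcatccacatgaTGTCGCTggac
PCDHA11: cacagttttaggcgcaaggTGTCGCTcttt
PCDHGB1: ttccaagacaacctctgggcGCCGCTGTcg
PCDHGC3: tattggctgggactctgtgtGCCGCTGTcg

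TGTCGCT was in 10 of 13 PCDHA promoters and in 2.15% of all promoters, and it was missing from PCDHA9, PCDHAC1 and PCDHAC2. GCCGCTGT was in 11 of 20 PCDHG promoters and in 1.98% of all promoters. The bare letters CGCT, which all 3 motifs contain, were in 71.9% of all promoters and do not mark the clusters. A match describes these letters and says nothing of what binds there. PCDHA3, PCDHA13, PCDHB6, PCDHB11, PCDHB17, PCDHB18, PCDHB19P, PCDHGB8P, PCDHGA12, PCDHGC5, PCDH10 and PCDH20 had no promoter entry.

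Reads in genes numbered between 19748583 and 19919797 in ALKBH5 siRNA libraries and between 18817181 and 23410007 in scrambled libraries. ALKBH5 itself fell to 17.1 ± 2.1 CPM in ALKBH5 siRNA libraries, against 143 ± 4.9 CPM in scrambled libraries (SD, n = 3 each). CPM is the read count of a gene scaled to the library size of the tested genes. The exact 2-sided permutation p for ALKBH5 was 0.1, the smallest that 3 libraries against 3 allow. A gene was called higher or lower when its adjusted p in edgeR's quasi-likelihood test was under 0.05. Of 14504 tested genes 61.6% were called, 30.8% higher and 30.8% lower, and the median log2 fold change was 0.01. Of 10 osteoblast markers 7 averaged at least 1 CPM in both groups, while SP7, BGLAP and IBSP were at or near 0.

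Of the 70 protocadherins, 45 passed the filter on low counts. Of these, 4 were called higher, 18 were called lower and 23 were not called, with a median log2 fold change of -0.46. Because the genes were chosen on this contrast, nothing is read from these counts against the 30.8% of all tested genes called in each direction. PCDH11X passed the filter only through the ALKBH5 siRNA libraries, and PCDHB7 and PCDHGB7 only through the scrambled libraries. The remaining 25 were untested and held at most 65 reads over the 6 libraries, and 3 of them, PCDH20, PCDH11Y and PCDHGB8P, had no read.

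The beta cluster as a whole was lower in cells given ALKBH5 siRNA. Its 19 genes summed to 103, 80.7 and 66.3 CPM in ALKBH5 siRNA libraries, against 217, 224 and 190 CPM in scrambled libraries, a sum 2.52-fold lower in the knockdown. Every ALKBH5 siRNA library lay below every scrambled library, and ALKBH5 siRNA library 1 was the highest of its group. Of 17 tested PCDHB genes 10 were called lower, 0 were called higher and 7 were not called. The 58.8% called stands beside 61.6% of all tested genes, 30.8% each way. The log2 fold change was negative in 16 of the 17, and their median was -0.78. Libraries did not overlap in 11 of them, all with the ALKBH5 siRNA libraries below, as in 33.9% of all tested genes.

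**Figure D1:**
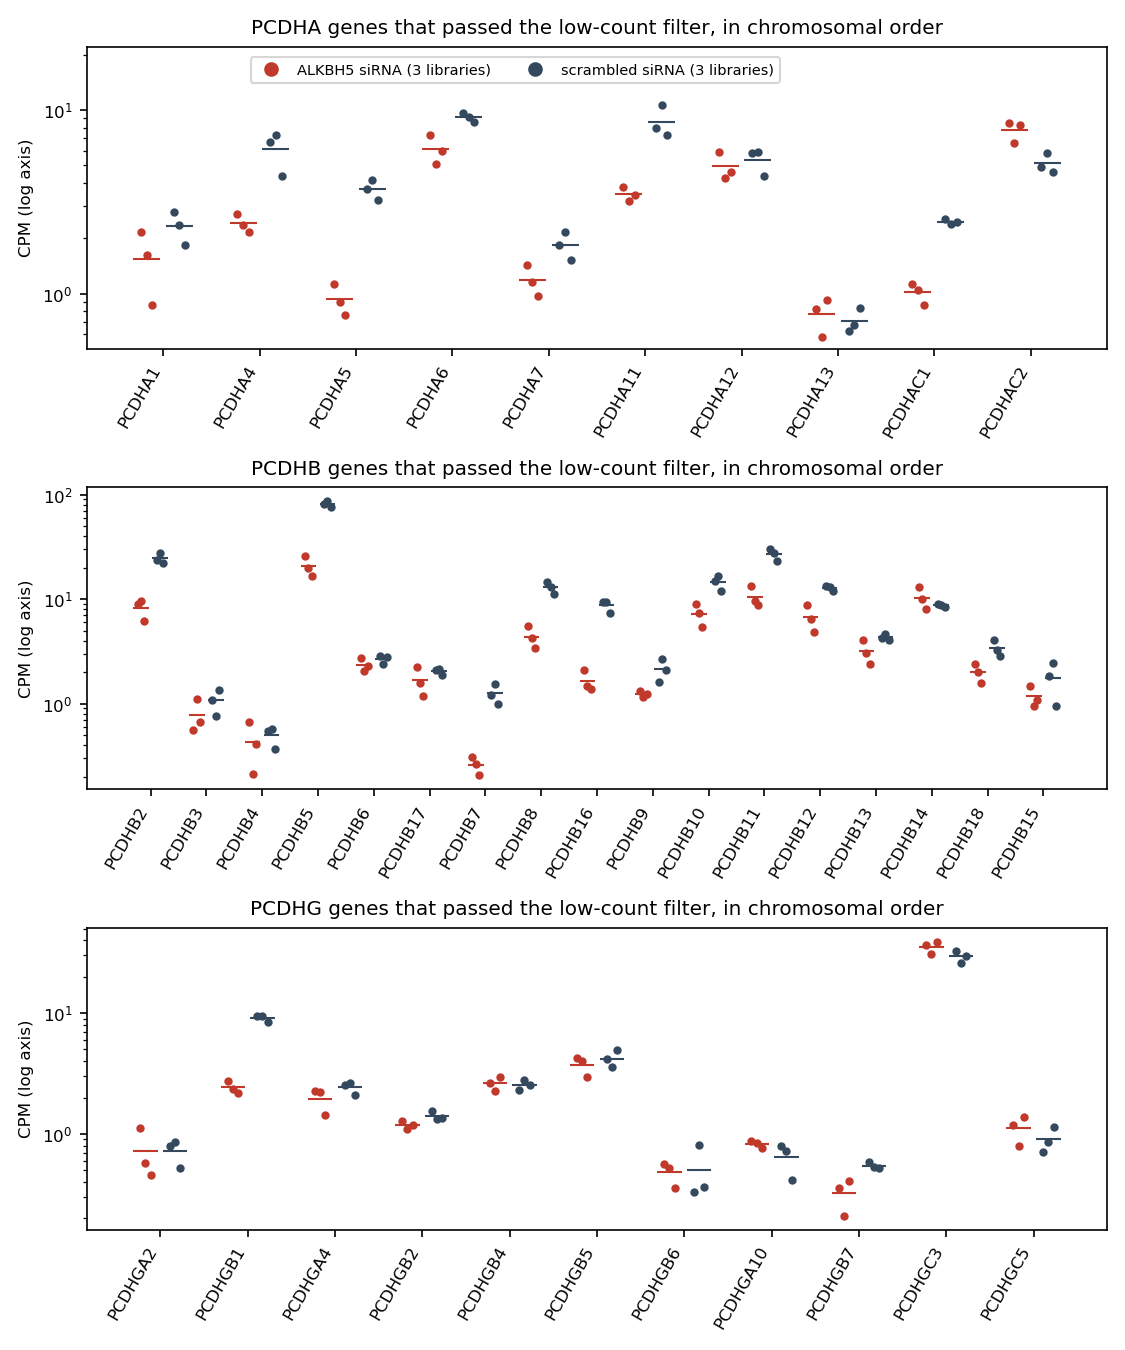
Level of each clustered protocadherin that passed the low-count filter, in CPM on a log axis, with genes in chromosomal order. Points are single libraries and lines are group means (n = 3 each). PCDHB5 lies at 16.8 to 26.1 CPM in ALKBH5 siRNA libraries and at 75.5 to 86.8 CPM in scrambled libraries, while PCDHGC3 lies at 30.9 to 39.1 CPM in ALKBH5 siRNA libraries and at 26.2 to 32.6 CPM in scrambled libraries.

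PCDHB5, the most abundant beta gene per length in both groups, had 26.1, 19.7 and 16.8 CPM in ALKBH5 siRNA libraries and 81.7, 86.8 and 75.5 CPM in scrambled libraries. The groups were far apart, and the log2 fold change was -1.96 (SE 0.14). PCDHB2 had 9.01, 9.52 and 6.20 CPM with ALKBH5 siRNA against 23.7, 27.4 and 22.4 CPM with scrambled siRNA (log2 fold change -1.57, SE 0.16). PCDHB11 had 13.4, 9.52 and 8.86 CPM with ALKBH5 siRNA against 30.0, 27.7 and 23.1 CPM with scrambled siRNA (log2 fold change -1.35, SE 0.16). For both genes the highest ALKBH5 siRNA library stayed well under the lowest scrambled library.

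The steepest decline among beta genes was that of PCDHB16. It had 2.10, 1.47 and 1.38 CPM in ALKBH5 siRNA libraries and 9.36, 9.37 and 7.43 CPM in scrambled libraries, with a log2 fold change of -2.40 (SE 0.21). PCDHB8, its neighbour in the cluster, had 5.48, 4.26 and 3.38 CPM with ALKBH5 siRNA against 14.7, 13.1 and 11.2 CPM with scrambled siRNA (log2 fold change -1.57, SE 0.19). The groups were apart for both. PCDHB7, on the other side of PCDHB8, was a low gene with 6, 5 and 4 reads in ALKBH5 siRNA libraries against 29, 32 and 19 reads in scrambled libraries (log2 fold change -2.25, SE 0.38).

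PCDHB10 and PCDHB12 moved less. PCDHB10 had 8.96, 7.31 and 5.43 CPM in ALKBH5 siRNA libraries and 14.8, 16.6 and 12 CPM in scrambled libraries (log2 fold change -1.0, SE 0.19). PCDHB12 had 8.85, 6.47 and 4.87 CPM with ALKBH5 siRNA against 13.3, 13.0 and 12 CPM with scrambled siRNA (log2 fold change -0.92, SE 0.19). No library of either gene crossed into the range of the other group.

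PCDHB9 and PCDHB18 were the weakest of the called beta genes. PCDHB9 had 1.33, 1.16 and 1.23 CPM with ALKBH5 siRNA against 1.62, 2.69 and 2.09 CPM with scrambled siRNA (log2 fold change -0.78, SE 0.27). Its call was lost under DESeq2 (log2 fold change -0.78), without ALKBH5 siRNA library 2 or 3 (-0.73 and -0.77) and without scrambled library 2 or 3 (-0.58 and -0.79). PCDHB18, a pseudogene in RefSeq, had 2.41, 2.00 and 1.59 CPM with ALKBH5 siRNA against 4.08, 3.27 and 2.88 CPM with scrambled siRNA (log2 fold change -0.77, SE 0.24), and its call was lost without scrambled library 1 (-0.62).

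PCDHB14 stood apart from the other abundant beta genes. It had 13.0, 10.0 and 8.04 CPM in ALKBH5 siRNA libraries and 8.91, 8.74 and 8.42 CPM in scrambled libraries, so the groups overlapped, and the log2 fold change was 0.25 (SE 0.17). Without ALKBH5 siRNA library 3, the lowest of its group, it was called higher (log2 fold change 0.41). The other genes not called were PCDHB3, PCDHB4, PCDHB6, PCDHB13, PCDHB15 and PCDHB17, with log2 fold changes between -0.58 and -0.20. PCDHB13 was called lower without ALKBH5 siRNA library 1 (-0.67), and PCDHB15 without scrambled library 3 (-0.87). PCDHB1 and the pseudogene PCDHB19P, with 2 and 54 reads over all libraries, were not tested.

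**Figure D2:**
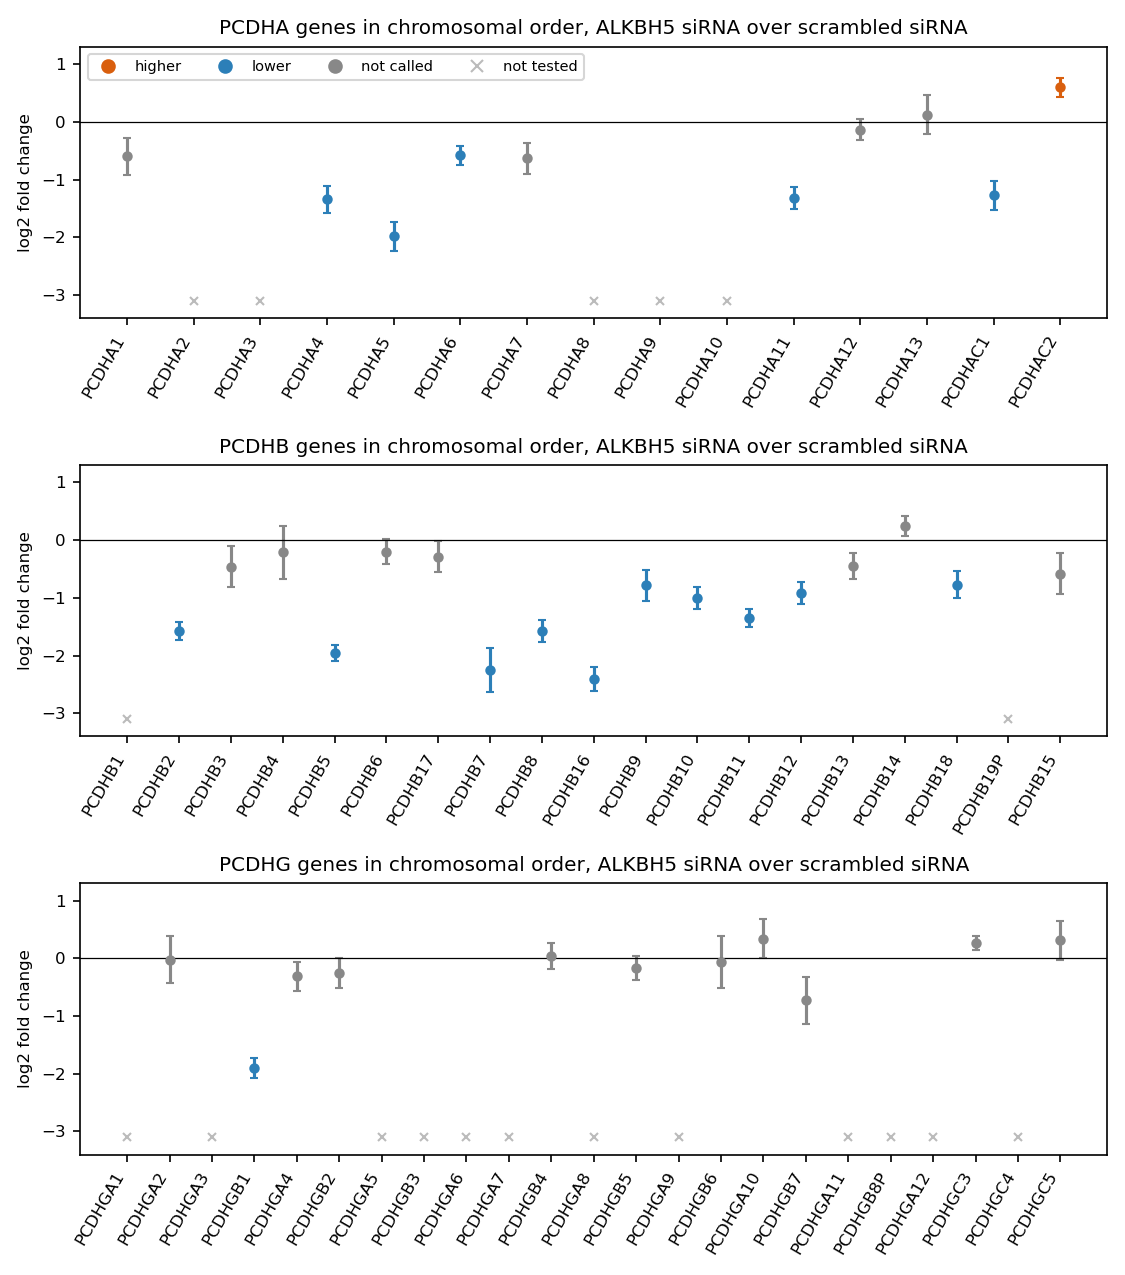
Log2 fold change, ALKBH5 siRNA over scrambled siRNA, of each clustered protocadherin in chromosomal order, with bars for the standard error and crosses for untested genes. Blue points are called lower, orange higher and grey not called; PCDHB16 is lowest in its cluster at -2.40, and PCDHAC2 at 0.60 is the orange point.

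The makeup of the beta transcripts differed along with their sum. PCDHB5 gave 25.0% ± 0.52 of PCDHB reads in ALKBH5 siRNA libraries and 38.8% ± 1.1 in scrambled libraries (SD, n = 3 each). PCDHB14 gave 12.4% ± 0.25 of PCDHB reads with ALKBH5 siRNA and 4.15% ± 0.27 with scrambled siRNA. The share of PCDHB11 was close in both groups, at 12.7% ± 0.83 with ALKBH5 siRNA and 12.8% ± 0.87 with scrambled siRNA.

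Per kilobase of sequence of its own, PCDHB5 averaged 7.11 CPM with ALKBH5 siRNA and 27.7 CPM with scrambled siRNA, and it ranked first of the 17 tested beta genes in both groups. In scrambled libraries PCDHB8, PCDHB11, PCDHB2 and PCDHB10 came next, at 8.90, 7.56, 7.54 and 6.94 CPM per kilobase, and their ranges over libraries overlapped. In ALKBH5 siRNA libraries PCDHB10, PCDHB8, PCDHB11, PCDHB2 and PCDHB14 followed at 3.46, 2.99, 2.98, 2.54 and 2.41 CPM per kilobase, and each overlapped the next. PCDHB14 ranked sixth with ALKBH5 siRNA and seventh with scrambled siRNA. Lengths are those of words of 50 bases, the read length, found in no other protocadherin of GENCODE 29, an annotation that may differ from the one the reads were counted on.

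**Figure D3:**
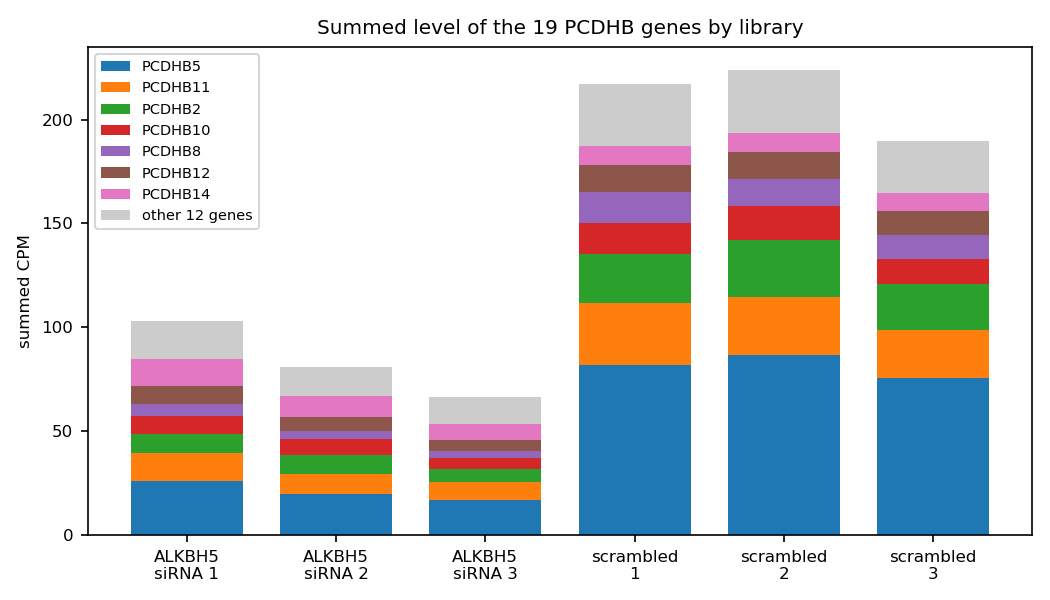
Summed CPM of the 19 PCDHB genes in each library, stacked by gene, with the 7 largest genes in colour and the other 12 in grey. The 3 ALKBH5 siRNA libraries reach 66.3 to 103 CPM and the 3 scrambled libraries 190 to 224 CPM, and the PCDHB5 segment is the largest in each library.

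Several alpha genes were lower too, and PCDHAC2 at the far end of the cluster was higher. The 15 PCDHA genes summed to 36.1, 27.5 and 29.4 CPM in ALKBH5 siRNA libraries and to 47.4, 51.6 and 40.6 CPM in scrambled libraries, without overlap. Of 10 tested PCDHA genes 5 were called lower, 1 was called higher and 4 were not called, and the median log2 fold change was -0.61. The 60% called stands beside 61.6% of all tested genes. Among the 13 alternate genes, PCDHA1 to PCDHA13, 8 were tested and 4 of them were called lower. Alpha genes share their constant exons, and only 42% of an alpha transcript's words, at the median, were its own, against 85.9% for beta and 52.7% for gamma genes. Alpha genes with fewer than 40 reads in all stood beside others with far more, so reads of the shared exons were not credited to each gene.

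PCDHA5 had 1.13, 0.894 and 0.768 CPM in ALKBH5 siRNA libraries and 3.70, 4.13 and 3.24 CPM in scrambled libraries (log2 fold change -1.98, SE 0.25). PCDHA11 had 3.79, 3.21 and 3.43 CPM with ALKBH5 siRNA against 7.99, 10.6 and 7.32 CPM with scrambled siRNA (log2 fold change -1.31, SE 0.19). PCDHA4 had 2.71, 2.37 and 2.15 CPM with ALKBH5 siRNA against 6.66, 7.30 and 4.34 CPM with scrambled siRNA (log2 fold change -1.34, SE 0.23). Each of the 3 genes was lower in every ALKBH5 siRNA library than in any scrambled library.

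PCDHA6 was called lower with a smaller difference. It had 7.27, 5.05 and 5.99 CPM with ALKBH5 siRNA against 9.66, 9.13 and 8.63 CPM with scrambled siRNA, with no overlap (log2 fold change -0.58, SE 0.17). PCDHA1, PCDHA7, PCDHA12 and PCDHA13 were not called, with log2 fold changes between -0.63 and 0.13. PCDHA7 passed the threshold at -0.69 when no scaling factor was used, and PCDHA1 at -0.90 without ALKBH5 siRNA library 1. PCDHA2, PCDHA3, PCDHA8, PCDHA9 and PCDHA10 held 18 to 36 reads in all and were not tested.

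The C-type genes, which close the alpha and gamma clusters and are regulated apart from the alternate genes in neurons, did not move together. PCDHAC1 had 1.13, 1.05 and 0.871 CPM with ALKBH5 siRNA against 2.54, 2.40 and 2.46 CPM with scrambled siRNA, and was called lower (log2 fold change -1.27, SE 0.25). PCDHAC2 had 8.44, 6.63 and 8.24 CPM with ALKBH5 siRNA against 4.91, 5.81 and 4.60 CPM with scrambled siRNA, and was called higher (log2 fold change 0.60, SE 0.17). Libraries of the groups did not overlap for either gene, in opposite directions. PCDHAC2 gave 25.2% ± 2.5 of PCDHA reads with ALKBH5 siRNA and 11% ± 0.52 with scrambled siRNA (SD, n = 3 each).

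The gamma cluster summed to nearly equal levels in both groups. Its 23 genes reached 57.5, 48.0 and 56.4 CPM in ALKBH5 siRNA libraries and 59.2, 53.6 and 55.0 CPM in scrambled libraries, which overlapped. Of 11 tested PCDHG genes 1 was called lower, 0 were called higher and 10 were not called, with a median log2 fold change of -0.06. The 9.09% called stands beside 61.6% of all tested genes. None of the 3 tested PCDHGA genes was called, and 1 of the 6 tested PCDHGB genes was. The 12 untested genes held 0 to 65 reads in all. These genes share constant exons as the alpha genes do, with the same consequence for their counts.

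PCDHGB1 was the called gene. It had 2.76, 2.37 and 2.20 CPM in ALKBH5 siRNA libraries and 9.49, 9.51 and 8.37 CPM in scrambled libraries, well apart, with a log2 fold change of -1.90 (SE 0.17). Its share of PCDHG reads was 4.55% ± 0.56 with ALKBH5 siRNA and 16.3% ± 1.3 with scrambled siRNA (SD, n = 3 each). PCDHGC3, a C-type gene that gave most of the cluster's reads, had 36.5, 30.9 and 39.1 CPM with ALKBH5 siRNA and 32.6, 26.2 and 29.9 CPM with scrambled siRNA. These overlapped, and its log2 fold change of 0.26 (SE 0.12) was not called, though without ALKBH5 siRNA library 2 it was (0.36). PCDHGC3 made up 65.8% ± 3.1 of PCDHG reads with ALKBH5 siRNA and 52.8% ± 3.4 with scrambled siRNA.

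The other 9 tested gamma genes were low, with group means of at most 3.74 CPM with ALKBH5 siRNA and 4.21 CPM with scrambled siRNA, and log2 fold changes between -0.73 and 0.34. PCDHGB5 was the most abundant of them, at 4.25, 4.0 and 2.97 CPM with ALKBH5 siRNA and 4.16, 3.55 and 4.92 CPM with scrambled siRNA. PCDHGB4 had 2.66, 2.26 and 2.97 CPM with ALKBH5 siRNA and 2.33, 2.79 and 2.56 CPM with scrambled siRNA. Both overlapped between the groups. PCDHGB7 marked the negative end of that range with 7, 4 and 8 reads in ALKBH5 siRNA libraries and 14, 11 and 10 reads in scrambled libraries, and it passed the filter through the scrambled libraries alone.

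Outside the clusters, PCDH1 and PCDH18 changed the most and in opposite directions. PCDH1, an adhesion protein of airway epithelium, had 35.3, 22.1 and 21.6 CPM in ALKBH5 siRNA libraries and 2.58, 1.01 and 0.785 CPM in scrambled libraries. That was 17.4-fold higher in the knockdown (log2 fold change 4.12, SE 0.39), with library 1 the highest of each group. Without scrambled library 1 the log2 fold change was 4.86. PCDH18 had 3.17, 2.89 and 2.00 CPM with ALKBH5 siRNA against 26.5, 25.6 and 18.7 CPM with scrambled siRNA, 8.78-fold lower in the knockdown (log2 fold change -3.13, SE 0.20). The groups were widely separated for both genes.

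**Figure D4:**
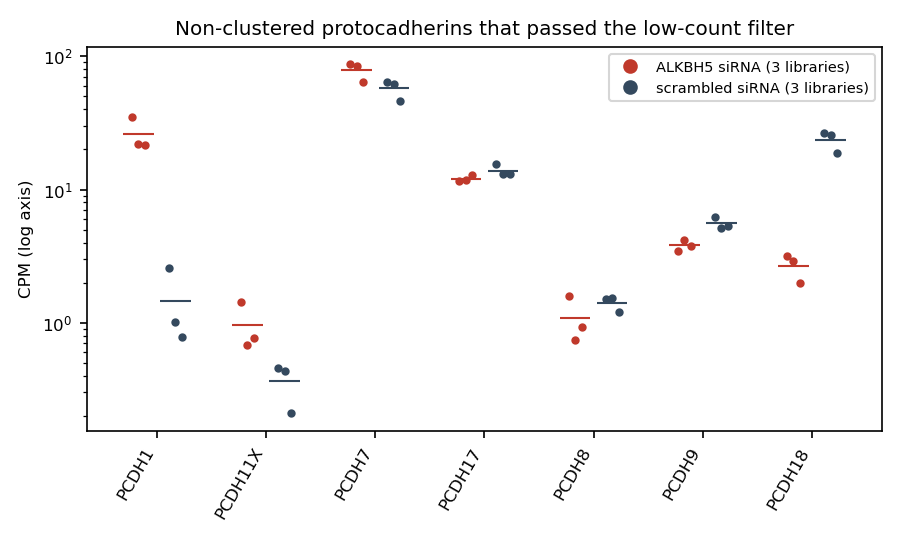
Level of the 7 non-clustered protocadherins that passed the low-count filter, in CPM on a log axis, ordered by log2 fold change with the most positive at the left. Points are single libraries and lines are group means (n = 3 each). PCDH1, at the left end, lies at 21.6 to 35.3 CPM with ALKBH5 siRNA and 0.785 to 2.58 CPM with scrambled siRNA, and PCDH18, at the right end, at 2.00 to 3.17 CPM with ALKBH5 siRNA and 18.7 to 26.5 CPM with scrambled siRNA.

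PCDH7, the non-clustered gene with the highest level per length in both groups, had 87.0, 84.8 and 64.6 CPM with ALKBH5 siRNA and 64.1, 62.3 and 45.9 CPM with scrambled siRNA. The groups barely failed to overlap, and the log2 fold change of 0.45 (SE 0.15) was called higher. This call was lost without ALKBH5 siRNA library 1 (0.38) or 2 (0.40) and without scrambled library 3 (0.31). Per kilobase of its own sequence, PCDH7 averaged 11.7 CPM with ALKBH5 siRNA and 8.54 CPM with scrambled siRNA. PCDH1 averaged 5.55 CPM per kilobase with ALKBH5 siRNA and 0.308 CPM per kilobase with scrambled siRNA, ranking 2 of 7 in the knockdown and 4 of 7 in the controls.

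PCDH9, PCDH11X and PCDH8 were lower-level genes, each averaging at most 0.28 CPM per kilobase in either group. PCDH9 had 3.48, 4.21 and 3.74 CPM with ALKBH5 siRNA against 6.24, 5.14 and 5.34 CPM with scrambled siRNA and was called lower (log2 fold change -0.55, SE 0.18), a call lost without ALKBH5 siRNA library 1 (-0.49) or scrambled library 1 (-0.46). PCDH11X had 28, 13 and 15 reads with ALKBH5 siRNA against 11, 9 and 4 reads with scrambled siRNA and was called higher (log2 fold change 1.35, SE 0.43). That call was lost under DESeq2 (1.38), without ALKBH5 siRNA library 1 (0.95) and without scrambled library 3 (1.10). Only 42.7% of the words of PCDH11X were its own, because of its near-identical copy PCDH11Y, and reads placed on both are not in these counts.

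PCDH17 had 11.6, 11.8 and 12.9 CPM with ALKBH5 siRNA and 15.5, 13.0 and 13.1 CPM with scrambled siRNA, narrowly apart but not called (log2 fold change -0.20, SE 0.13). PCDH8, the paraxial protocadherin, had 1.59, 0.737 and 0.922 CPM with ALKBH5 siRNA and 1.5, 1.54 and 1.20 CPM with scrambled siRNA, which overlapped. PCDH10, PCDH12, PCDH15 and PCDH19 held at most 34 reads in all and were not tested. In total 3 of the 7 tested non-clustered genes were called higher and 2 were called lower. The 71.4% called stands beside 61.6% of all tested genes. The sum of the 13 was 144, 128 and 107 CPM with ALKBH5 siRNA and 118, 110 and 85.8 CPM with scrambled siRNA, with overlap, and PCDH7 was its largest member in every library.

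Genes that act on the clusters were read from lists. These and the lists below were chosen with earlier results of these data known, so their shares are descriptions. In a list of CTCF and cohesin genes 14 of 15 were tested, of which 6 fell and 3 rose, with a median log2 fold change of -0.21. The 64.3% called was close to the 61.6% of all tested genes. CTCF, which binds the promoter element, was at 110 ± 7.5 CPM with ALKBH5 siRNA and 147 ± 7.8 CPM with scrambled siRNA (SD, n = 3 each), a log2 fold change of -0.41 (SE 0.08, adjusted p = 0.00078, edgeR quasi-likelihood test with Benjamini-Hochberg adjustment). PDS5A, which regulates the release of cohesin, fell by 1.46 on the log2 scale (SE 0.09, edgeR adjusted p = 7.6e-08). The cohesin subunit gene SMC3 fell by 0.63 (SE 0.08, edgeR adjusted p = 3e-05) and STAG2 rose by 0.60 (SE 0.08, edgeR adjusted p = 4.9e-05). RAD21, the subunit that closes the cohesin ring, was at 452 ± 57 CPM with ALKBH5 siRNA and 510 ± 8.3 CPM with scrambled siRNA and did not pass the test (log2 fold change -0.17, edgeR adjusted p = 0.12). It passed with no scaling factor (-0.24) and without ALKBH5 siRNA library 2 (-0.25), and its adjusted p ran from 0.033 to 0.45 over all alternatives.

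In a list of genes that silence clustered protocadherins or place repressive marks, 16 of 18 were tested, of which 10 fell and 4 rose, with a median log2 fold change of -0.29. That is 87.5% called, with 62.5% lower and 25.0% higher, beside 61.6% called and 30.8% each way among all tested genes. SMCHD1, a repressor of the clusters, was at 209 ± 8.1 CPM with ALKBH5 siRNA and 255 ± 7.7 CPM with scrambled siRNA (log2 fold change -0.28, SE 0.07, edgeR adjusted p = 0.0043). ATF7IP, the partner of the histone methyltransferase SETDB1, was at 19.1 ± 5.4 CPM with ALKBH5 siRNA and 92.2 ± 8.6 CPM with scrambled siRNA (log2 fold change -2.27, SE 0.17, edgeR adjusted p = 1.8e-06). The histone H3 lysine methyltransferase gene EHMT2 fell by 1.09 on the log2 scale (SE 0.09, edgeR adjusted p = 6e-07), and SUV39H1, another such enzyme, rose by 0.90 (SE 0.09, edgeR adjusted p = 2.7e-06). Whether any of these differences bears on the protocadherins was not tested.

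**Figure D5:**
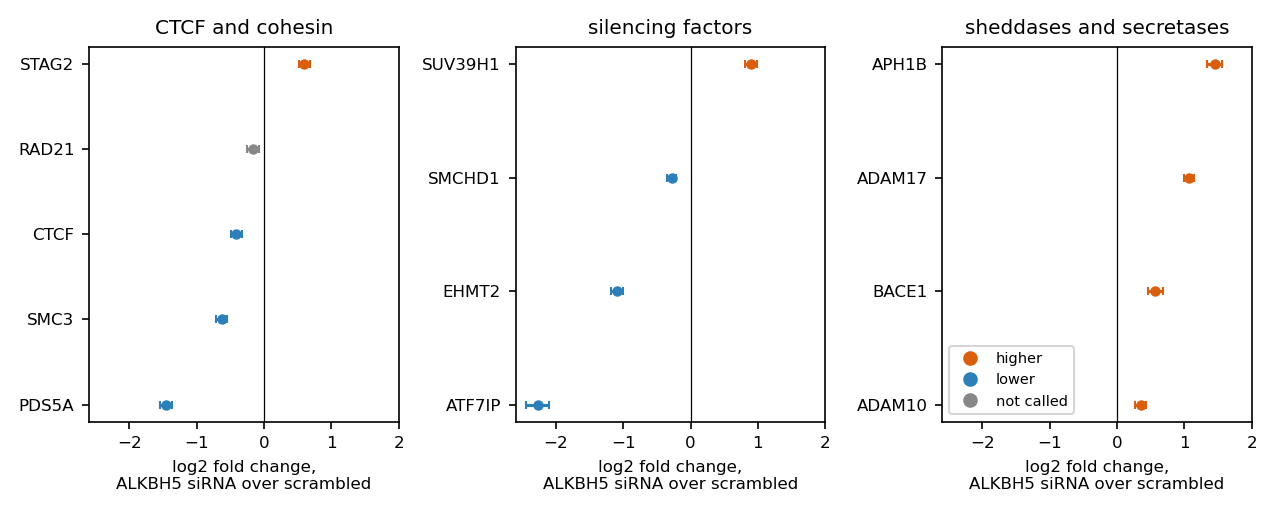
Log2 fold change, ALKBH5 siRNA over scrambled siRNA, with bars for the standard error, of the genes named in the text from 3 lists, CTCF and cohesin, silencing factors, and sheddases and secretases. Orange points are called higher, blue lower and grey not called; ATF7IP at -2.27 is the lowest and APH1B at 1.45 the highest of the 3 panels.

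Protocadherins are cut at the membrane by ADAM10 and then by gamma-secretase, which releases their cytoplasmic part. Of 10 genes for sheddases and secretases, all tested, 6 rose, 1 fell and 3 were not called, with a median log2 fold change of 0.32. That is 60% higher and 10% lower, beside 30.8% each way among all tested genes. ADAM10 was at 333 ± 26 CPM with ALKBH5 siRNA and 261 ± 7.0 CPM with scrambled siRNA (log2 fold change 0.35, SE 0.08, edgeR adjusted p = 0.0019). ADAM17, a related sheddase, rose by 1.07 on the log2 scale (SE 0.08, edgeR adjusted p = 4.3e-07), and BACE1, the beta-secretase, by 0.57 (SE 0.11, edgeR adjusted p = 0.001). The gamma-secretase subunit gene APH1B rose by 1.45 (SE 0.11, edgeR adjusted p = 4.7e-07). The 3 genes not called are all genes of other gamma-secretase subunits.

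Of 27 genes whose proteins bind protocadherins or carry their signals inside the cell, 26 were tested, and 13 rose and 9 fell, with a median log2 fold change of 0.21. That is 84.6% called, with 50.0% higher and 34.6% lower, beside 61.6% called and 30.8% each way among all tested genes. PTK2, the focal adhesion kinase that clustered protocadherins bind and inhibit, was at 407 ± 9.0 CPM with ALKBH5 siRNA and 92.4 ± 5.7 CPM with scrambled siRNA (SD, n = 3 each). Its log2 fold change was 2.14 (SE 0.08, edgeR adjusted p = 2.5e-09). Members of the WAVE actin-regulating complex, which several protocadherins recruit, went both ways. WASF3 rose by 1.58 on the log2 scale (SE 0.09, edgeR adjusted p = 3.9e-08) and WASF2 fell by 1.01 (SE 0.08, edgeR adjusted p = 5.2e-07).

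Of 22 other genes that lie near the clusters on chromosome 5, 20 were tested, and 5 rose, 8 fell and 7 were not called, with a median log2 fold change of -0.17. The 65.0% called was close to the 61.6% of all tested genes. TAF7, which lies between the beta and gamma clusters, was at 145 ± 11 CPM with ALKBH5 siRNA and 159 ± 5.6 CPM with scrambled siRNA and did not pass the test (log2 fold change -0.14, SE 0.08, edgeR adjusted p = 0.15). With no scaling factor it passed (-0.20), and its adjusted p ran from 0.035 to 0.43 over all alternatives. DIAPH1, next to the end of the gamma cluster, fell by 0.43 on the log2 scale (SE 0.07, edgeR adjusted p = 0.00026), and HDAC3 beyond it by 0.48 (SE 0.09, edgeR adjusted p = 0.00039). ZMAT2, a zinc finger gene before the alpha cluster, had the smallest adjusted p of the list and fell by 1.87 (SE 0.10, edgeR adjusted p = 2.1e-08). RELL2 rose by 1.67 (SE 0.13, edgeR adjusted p = 3.9e-07), and the fibroblast growth factor gene FGF1 by 1.64 (SE 0.20, edgeR adjusted p = 7e-05).

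Beta genes are nearly intronless. In GENCODE 29, 7 of the 19 had a single exon in every transcript, and the other 12 had a transcript with 2 exons and none with more. Other genes of the table with a single exon in every transcript numbered 2526, of which 349 were tested. Of these 74 rose and 91 fell, 47.3% in all, against 61.6% of all tested genes, and their median log2 fold change was 0.04. The 10 of 17 PCDHB genes called lower stand beside 26.1% called lower among these single-exon genes, again with nothing read from the beta count, since it chose the family.

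Markers of other cell types were read as a check of the culture. Of 14 neuron markers 8 averaged at least 1 CPM in both groups, the 14 summing to 305 to 322 CPM with ALKBH5 siRNA and 334 to 366 CPM with scrambled siRNA, and DCX, ELAVL3 and ELAVL4 were near 0. These sums hide differences in both directions, since 4 of the 10 tested rose and 3 fell. That is 40% higher and 30% lower, beside 30.8% each way among all tested genes. Named after their values were seen, the synaptic vesicle gene SYP was at 15.3 ± 1.3 CPM with ALKBH5 siRNA and 1.65 ± 0.17 CPM with scrambled siRNA. STMN2 was at 2.79 ± 0.77 CPM with ALKBH5 siRNA and 0.245 ± 0.077 CPM with scrambled siRNA. It is among the 4 that rose, but it passed the low-count filter only through the ALKBH5 siRNA libraries. SYT1 was 4.57-fold higher in the knockdown. In the other direction MAP2, a microtubule protein, was at 3.10 ± 1.1 CPM with ALKBH5 siRNA and 27.6 ± 6.9 CPM with scrambled siRNA (SD, n = 3 each), and GAP43 was 3.95-fold lower. Of 9 epithelial markers 4 averaged at least 1 CPM in both groups, the 9 summing to 626 to 649 CPM with ALKBH5 siRNA and 538 to 635 CPM with scrambled siRNA, and KRT19 and GRHL2 were near 0. Of 10 leukocyte and endothelial markers 2 averaged at least 1 CPM with ALKBH5 siRNA and 4 with scrambled siRNA, the 10 summing to 6.26 to 8.09 CPM with ALKBH5 siRNA and 12.6 to 13.8 CPM with scrambled siRNA, and CD3E had no read. The 10 osteoblast markers summed to 3100 to 3790 CPM with ALKBH5 siRNA and 3490 to 3710 CPM with scrambled siRNA. Single genes differed in these sets too. Of 7 tested epithelial markers 3 rose (42.9%) and 2 fell (28.6%), and of 7 tested osteoblast markers 2 rose and 2 fell (28.6% each). Of 7 tested leukocyte and endothelial markers 0 rose and 3 fell (42.9%). The share of all tested genes was 30.8% each way. CLDN7 and KDR, both among those that fell, passed the filter only through the scrambled libraries. Uniquely placed reads outside genes were 17.9% ± 0.66 with ALKBH5 siRNA and 15.3% ± 0.23 with scrambled siRNA (SD, n = 3 each). The part of any of these in the protocadherin values was not tested.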

How the data were processed

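Counts are reads per gene as deposited by the authors, with no normalisation per the file headers, from stranded mRNA libraries read as single 50-base reads. TopHat2, HTSeq, SAMtools, CASAVA 1.8.2 and the build hg19 are named in the submitters' processing notes. Settings, including strand, are not given there, so reads of overlapping and antisense genes cannot be told apart. HTSeq's summary lines entered neither library sizes nor tests, and the share of reads outside genes stands in the text. Ambiguous reads made up 0.746% ± 0.0081 with ALKBH5 siRNA and 0.836% ± 0.021 with scrambled siRNA.

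Genes were kept with filterByExpr, which asked for about 0.504 CPM in 3 libraries, scaled by TMM and fitted in edgeR 4.0.16 under R 4.3.3 (robust quasi-likelihood, 2-sided, group as the single term). The Benjamini-Hochberg adjustment of p-values covered the 14504 genes tested. Fold changes have ALKBH5 siRNA on top, and the SE is the log2 fold change divided by the square root of F. The fit was also run on simulated counts in which far fewer genes changed than were called here. That run therefore cannot show how the scaling and calls hold in these data. The members and gene lists were chosen with earlier results of these data known. Every tested member is named or placed in a range, and from each list up to 3 called genes with the smallest adjusted p are named together with CTCF, SMCHD1, RAD21, ADAM10, DIAPH1, HDAC3 and TAF7. A gene that this rule takes is not reported here. Alternatives were RLE scaling, no scaling factor, no low-count filter, 1 CPM in 3 libraries, DESeq2 1.42.0, limma-voom (limma 3.58.1), no robust moderation, a block for the replicate number, and fits without 1 library at a time. Promoters and gene names came from RefSeq on GRCh38.p14, exons and 50-base words from GENCODE 29. No coordinates of the files' own build are given.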

Additional observations from a re-analysis of the deposited data

How the results depend on the processing

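Of 623 log2 fold changes of the 45 tested members under the alternatives, 588 kept their direction and side of the threshold, 14 lost their call, 9 gained one and 12, all of genes never called, changed sign. The sign changes were PCDHGB4 without a scaling factor (-0.02), PCDHGB6 under limma-voom (0.04) and, with libraries left out, PCDHA13 (-0.01 to 0.30), PCDHB4 (-0.67 to 0.11), PCDHGA2 (-0.49 to 0.23), PCDHGB4 (-0.05 to 0.14) and PCDHGB6 (-0.31 to 0.46). With libraries left out, called-higher non-clustered genes numbered 1 to 3, called-lower ones 1 to 2, called-lower PCDHB genes 9 to 11, and called-higher PCDHB and PCDHG genes 0 to 1 each. Of 350 values of the 25 named genes outside the family, 346 kept direction and side, and the exceptions were RAD21 and TAF7. The causes were not tested. Same-numbered libraries of the groups deviated together by r = 0.33, 0.06 and 0.35 across genes, and differently numbered ones by -0.37 to 0.08. Whether the numbers pair the libraries cannot be told from this, and the main fit had no term for them. With the replicate block 4865 genes were called higher and 4895 lower over all, and 1 PCDHG gene was called higher, PCDHGC3 (0.26). PCDHA1 (-0.60), PCDHA7 (-0.62) and RAD21 (-0.18) were called lower under it. Without a scaling factor the median of all genes was -0.06, with 4019 called higher and 4992 lower. The summed ratio of PCDHB stayed between 0.379 and 0.397 under the scalings. Genes below about 20 reads a library in at least 1 group, such as PCDHB7, PCDHGB7 and PCDH11X, have wide errors. Each of these 3 passed the filter through 1 group only.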

Other observations

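The wider cadherin superfamily was read beside the protocadherins, from a list also chosen with earlier results of these data known. Of 23 FAT, Dachsous, CELSR, calsyntenin, desmosomal and other large or unusual cadherin genes, 18 were tested, and 10 rose, 4 fell and 4 were not called, with a median log2 fold change of 0.57. That is 77.8% called, with 55.6% higher and 22.2% lower, beside 61.6% called and 30.8% each way among all tested genes. CDH13, a cadherin anchored to the membrane by a lipid, was at 180 ± 26 CPM with ALKBH5 siRNA and 43.3 ± 5.2 CPM with scrambled siRNA (SD, n = 3 each), a log2 fold change of 2.06 (SE 0.12, adjusted p = 1.2e-07, edgeR quasi-likelihood test with Benjamini-Hochberg adjustment). DSG2, a desmosomal cadherin, was at 197 ± 8.3 CPM with ALKBH5 siRNA and 69.5 ± 1.5 CPM with scrambled siRNA (log2 fold change 1.5, SE 0.07, edgeR adjusted p = 1.7e-08). CDHR3, which serves as a receptor of rhinovirus C in airway cells, was a low gene at 2.41 ± 0.28 CPM with ALKBH5 siRNA and 0.332 ± 0.093 CPM with scrambled siRNA (log2 fold change 2.85, SE 0.32). It is among the 10 that rose, but it passed the low-count filter only through the ALKBH5 siRNA libraries, so no p-value is given for it.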
